A study of Mus musculus with 9 samples.

Results

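Mouse cultures in which the caudal homeobox factor Cdx2 had been induced and FGF added were compared at day 5 with the undifferentiated embryonic stem (ES) cells they came from. The comparison covers all annotated probe sets on 6 of the 9 Affymetrix arrays of the series, 3 of each group. Every group came from one Ainv15 ES cell line that carries a V5-tagged Cdx2 construct under doxycycline control, so the untreated ES cells carry it as well. The ES cells (day 0) had been grown with LIF over fibroblasts treated with mitomycin C. The other cells were turned into embryoid bodies and, from day 2, received retinoic acid at 1 µM and a hedgehog agonist at 0.5 µM. The Cdx2 and FGF cultures additionally received basic FGF (100 ng/ml) and, starting on day 3, doxycycline at 2 µg/ml that lasted 6 to 8 hours. The remaining 3 arrays are day 5 motor neuron cultures made with retinoic acid and hedgehog agonist alone, and they stand beside the comparison as a reference. Cultures given doxycycline and FGF are called induced cultures below.

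The growth protocol also mentions a wash followed by retinoic acid and hedgehog agonist at 100 nM each, without naming the cultures that got it. Growth with LIF over fibroblasts, time in culture, retinoic acid, hedgehog agonist, doxycycline, Cdx2 and FGF all separate the groups compared. Control probe sets of the chip, described below, separate these groups as well. The contributions of all these cannot be told apart. Whether the ES arrays also hold RNA of the fibroblast layer was not tested, so levels given for ES cells may include it. Nothing in the labels says that the arrays of a group came from separate cultures, so p-values rest on the spread among arrays alone, and that spread may be technical. In bulk RNA of this kind, fewer cells of a type and less RNA per cell cannot be told apart either.

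ES cells are held in an undifferentiated state by a network of factors that includes Oct4 (Pou5f1), Nanog, the Klf factors and autocrine FGF4. Retinoic acid gives differentiating embryoid bodies a neural and cervical character, and hedgehog signals specify ventral spinal cord progenitors, from which motor neurons arise. Cdx factors and FGF act in the tail of the embryo, where neural and mesodermal tissue of the trunk is laid down and where Hox genes of higher paralog number are switched on. Hox genes lie in 4 clusters whose paralog order matches the order of their expression domains from hindbrain to tail. Cdx2 is also known as a factor of the trophectoderm and of the intestinal lining.

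All levels below are log2 values per probe set, with 2.17 as the lowest value an array can show. Values under 4 are described as unmeasured, but differences, SEs and calls used them as they stood. A gene is represented by its brightest probe set on average over all 9 arrays, and differences are Cdx2 and FGF cultures minus ES cells. A gene was called where limma gave a Benjamini-Hochberg adjusted p under 0.05 and the log2 difference was 1 or more in size. Where an array of the dimmer group lay under 4, a fold is given as a lower bound ("at least"), computed with values under 4 raised to 4. Of 10912 genes tested, 5745 (52.6%) were called, 2774 (25.4%) as higher and 2971 (27.2%) as lower, and the median difference over all genes was 0.00. The counts of every gene list below are to be read beside these shares. Among 19554 single probe sets 56.1% were called, 32.2% as higher and 23.9% as lower. Against motor neuron cultures, which share the induced arrays, 19.8% of the genes were called, 11.2% as higher and 8.61% as lower. All ES arrays lay under 4 for 417 of the higher genes, and all Cdx2 and FGF arrays for 623 of the lower ones. Such genes were tested because other arrays lay over 4, so a measured level could only be found in the other group. Centring each array on its own median moved the median of all genes by 0.43 and the calls to 3725 higher and 2215 lower, so that higher genes made up 62.7% of the calls in place of 48.3%.

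The 3 ES arrays stood apart from the day 5 arrays in several of the chip's control probe sets, so each gene was read over all its probe sets. For Actb, the 3′ control exceeded the 5′ control by 1.87, 2.04 and 2.30 in ES cells, whereas the difference was -0.10, -0.02 and -0.01 in induced cultures. For the transferrin receptor gene (Tfrc) it was 6.31, 6.86 and 5.59 against -1.75, -1.67 and -1.43. The 3′ probe set of 18S ribosomal RNA read 5.86, 6.60 and 6.59 against 15.42, 15.40 and 15.33. These groups did not overlap, with an exact two-sided permutation p of 0.1 for each, the smallest that 3 arrays against 3 can give; the Gapdh controls differed by -0.28, also with p = 0.1. A control for bacterial bioB, which is not a mouse gene, also differed. One 5′ probe set of it read 14.84, 14.42 and 14.47 in ES cells against 11.56, 11.76 and 11.69 in induced cultures. A 3′ control for cre was alike, at 15.95, 15.85 and 15.87 against 15.91, 15.93 and 15.95. What part these controls or the handling of the arrays have in the calls of single genes was not tested. The median within-group SD of the tested genes was 0.377 in ES cells and 0.114 in induced cultures. The fit gave each gene 1 spread shared by all 3 groups. Its p-values therefore assume an equal spread, which these SDs do not show.

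Of 5177 genes with 2 or more tested probe sets, 698 (13.5%) had every probe set called higher and 397 (7.67%) every probe set called lower. A further 790 (15.3%) were opposed, that is, they had probe sets called in both directions. Against motor neuron cultures, whose arrays had control values like those of the induced cultures, 331 (6.39%) and 285 (5.51%) of the same genes had all probe sets called one way and 9 (0.174%) were opposed. Calls against ES cells were split by their direction. Of 1342 lower genes with several probe sets, 511 (38.1%) had a probe set called higher and 397 (29.6%) had all probe sets lower. Of 1211 higher genes, 116 (9.58%) had a probe set called lower and 698 (57.6%) had all of them higher. Another 5736 genes had a single tested probe set and could not be read this way.

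**Figure D1:**
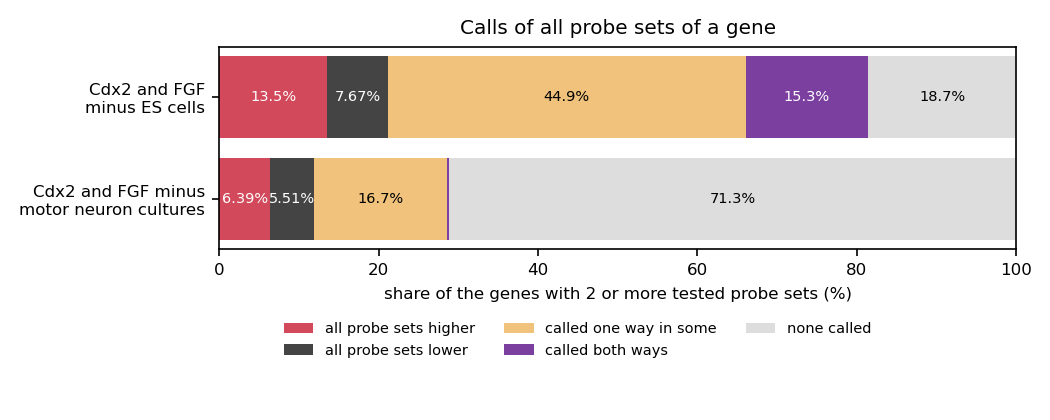
Horizontal bars give the share (percent, x axis) of the 5177 genes with 2 or more tested probe sets whose probe sets were all called higher, all called lower, called one way in some, called both ways or not called, for Cdx2 and FGF cultures against ES cells (top) and against motor neuron cultures (bottom). The opposed share was 15.3% against ES cells and 0.174% against motor neuron cultures, too thin a strip to label.

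Cdx2 itself was at or near the lowest value without induction and measurable after it. Its brighter probe set read 2.17 on every ES array, then 8.27, 8.99 and 8.59 in induced cultures, and stayed at 2.17, 2.17 and 2.24 in motor neuron cultures. Cdx2 was thus at least 24.5-fold above ES cells (difference 6.44, SE 0.23, adjusted p = 1.9e-08). Another Cdx2 probe set went from 2.70, 2.63 and 4.56 to 6.39, 7.11 and 6.60, a difference of 3.40. Neither probe set overlapped between ES cells and induced cultures, and 8002 of the 10912 genes tested had no overlap in their brightest probe set. Whether these probe sets read the construct, the endogenous gene or both was not tested. The promoter of the endogenous gene is shown because Cdx2 is the induced factor and its promoter holds the octamer ATGCAAAT, known as a site of Oct4 and related POU factors. The window of 300 bases around the RefSeq start lies at chr5:147307200-147307499 on the minus strand of GRCm38.p6, 5′ to 3′, with the octamer in capitals:
Cdx2 promoter: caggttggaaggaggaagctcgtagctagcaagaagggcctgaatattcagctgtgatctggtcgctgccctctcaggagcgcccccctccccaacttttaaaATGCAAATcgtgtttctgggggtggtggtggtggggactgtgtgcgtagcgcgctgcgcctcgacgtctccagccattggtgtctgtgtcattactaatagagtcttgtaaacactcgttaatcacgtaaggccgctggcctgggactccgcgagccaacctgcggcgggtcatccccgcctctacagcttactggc

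RefSeq promoters of this length were searched on both strands for that octamer and for TTTATNG, the letters of a Cdx-type site. TTTATNG was found in 46 of 733 promoters (6.28%) of genes with all probe sets higher, in 23 of 419 (5.49%) of genes with all probe sets lower, and in 732 of 11397 (6.42%) of all genes tested. In 15, 7 and 256 of these it overlapped the TATA-box letters TATAAA. These TTTATNG shares lay close to that of all tested genes. The octamer was found in 12 (1.64%), 3 (0.716%) and 139 (1.22%) of the same promoters. A promoter was at hand for 551 of the 698 higher genes, 311 of the 397 lower genes and 8867 of the 10912 tested. The median G plus C content was 62.7%, 60.3% and 61.3%.

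Genes of the tail bud and of caudal progenitors were mostly higher. Of 14 tested members, out of 26 with a probe set, 9 were higher, 1 lower and 4 not called (median difference 3.73, and 2.52 once values under 4 were raised to 4). Cdx2 is one of the higher genes. For 6 of the 14 all ES arrays lay under 4, so a fall from a measured level could not be seen. Greb1, a cofactor of nuclear receptors, read 3.42, 3.63 and 3.68 in ES cells and 10.41, 10.19 and 10.44 in induced cultures. Its 3 probe sets were all higher, and the rise was at least 81.3-fold (difference 6.77, SE 0.23, adjusted p = 1.44e-08). Sp8, a zinc finger factor of the limb and tail bud, went from 2.38, 2.17 and 3.06 to 9.52, 9.25 and 9.04, at least 38.6-fold higher. The retinoic acid hydroxylase gene Cyp26a1 was spread over the ES arrays at 5.11, 3.01 and 7.08 and tight in the cultures at 11.11, 11.08 and 10.89. Its difference was 5.96 (SE 0.85, adjusted p = 0.000163), between 4.93 without ES replicate 2 and 6.97 without ES replicate 3. Wnt5b, a non-canonical Wnt ligand gene, rose by 4.26 in its brighter probe set and was higher in both. Of these genes, Cdx2 and Cyp26a1 were also higher than in motor neuron cultures (6.42 and 2.73), as was Greb1 (1.68), whereas Sp8 was lower than there (-1.74), on arrays that both comparisons share.

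Hox genes of paralogs 1 to 9 were higher in the induced cultures wherever they were called. Of 11 tested genes of paralogs 1 to 5, 10 were higher and none lower, median difference 5.73, and 5.19 on raised values. Of 9 tested genes of paralogs 6 to 9, 8 were higher and none lower, median difference 7.30, and 6.17 on raised values. All ES arrays lay under 4 for 8 of the first set and 6 of the second, so a fall could not have been called for them. Another 11 Hox genes with a probe set were too dim for a test, among them Hoxb1, Hoxd10 and Hoxc10, which read 6.14, 4.88 and 2.55 in induced cultures and 2.17 to 2.27 elsewhere.

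Hoxa9 ranked highest of the Hox genes whose probe sets all rose. One probe set read 2.17, 3.70 and 2.17 in ES cells and 11.26, 11.10 and 11.11 in induced cultures. The other read 2.24, 2.19 and 2.19 against 10.58, 10.31 and 10.28. Both lay far above ES cells (differences 8.48 and 8.18), and the brighter one was at least 143-fold higher (SE 0.39, adjusted p = 8.19e-08). In motor neuron cultures it stayed at 2.17. Hoxb9 went from 2.45, 2.92 and 2.27 to 10.65, 10.75 and 10.79, at least 106-fold higher. Hoxc9 went from 2.17 on every ES array to 10.15, 10.20 and 10.15, at least 71.9-fold higher. In motor neuron cultures both stayed under 4. Hoxd8 had both probe sets higher, the brighter at least 78.4-fold, and Hoxa7 rose from 3.38 on every ES array to 6.72, 7.58 and 6.94.

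Some Hox genes were already measurable on the ES arrays. Hoxc8 read 6.47, 7.88 and 7.77 there and 11.62, 11.55 and 11.80 in induced cultures (difference 4.29, SE 0.36, adjusted p = 4.14e-06), against 2.31 on each motor neuron array. Hoxd9 read 4.97, 8.42 and 6.43 against 11.01, 10.00 and 8.55. The groups did not overlap, as in most genes tested, but were wide. Its difference was 3.24 (SE 0.83, adjusted p = 0.00608), or between 2.42 and 4.15 without 1 ES array. The 2 tested genes of paralogs 10 to 13, Hoxc13 and Hoxd13, were measured in ES cells only. Hoxc13 fell from 5.49, 7.31 and 5.62 to 2.17 in every induced culture, at least 4.4-fold lower. Hoxd13 was called at a difference of -2.46, which was -0.63 and no longer called with low values raised.

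Hox genes of paralogs 2 to 5 lay between ES cells and motor neuron cultures. Hoxb5 read 2.56, 2.63 and 2.56 in ES cells, 10.48, 10.65 and 10.79 in induced cultures and 14.20, 14.10 and 14.12 in motor neuron cultures. It was at least 99.6-fold above ES cells (difference 8.06, SE 0.16, adjusted p = 1.15e-09) and lower than motor neuron cultures (difference -3.50, adjusted p = 4.61e-07). Hoxc5 had 3 probe sets called higher than in ES cells, by 1.27 to 4.32, but the one with 1.27 lay under 4 in both groups, and its difference was 0.00 with low values raised. The dimmer Hoxb4 probe set likewise differed by 0.47 once low values were raised, and the brighter by 5.19. Hoxa5 and Hoxa3 had all their probe sets higher, and Hoxb6 went from 2.17, 2.89 and 2.19 to 9.76, 10.36 and 10.45, at least 73-fold higher. Hoxb3 was the gene of this set whose fall against motor neuron cultures was not called (-1.92, adjusted p = 0.0702).

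Hoxa4 and Hoxc6 were the tested genes of paralogs 1 to 9 without a call, and their probe sets did not read alike. The brighter Hoxa4 probe set read 4.10, 4.40 and 4.10 against 5.03 in each induced culture, a difference of 0.83 that missed the threshold of 1. Its other probe set differed by 1.47 and was called, but by only 0.04 with low values raised. The mean of both was called at 1.15. The brightest Hoxc6 probe set read 4.62, 4.71 and 4.62 against 4.62, 4.82 and 4.62. Both of the remaining Hoxc6 probe sets were called, with differences of 3.50 and 3.37, one of them going from 2.17 on each ES array to 6.08, 5.59 and 5.32.

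**Figure D2:**
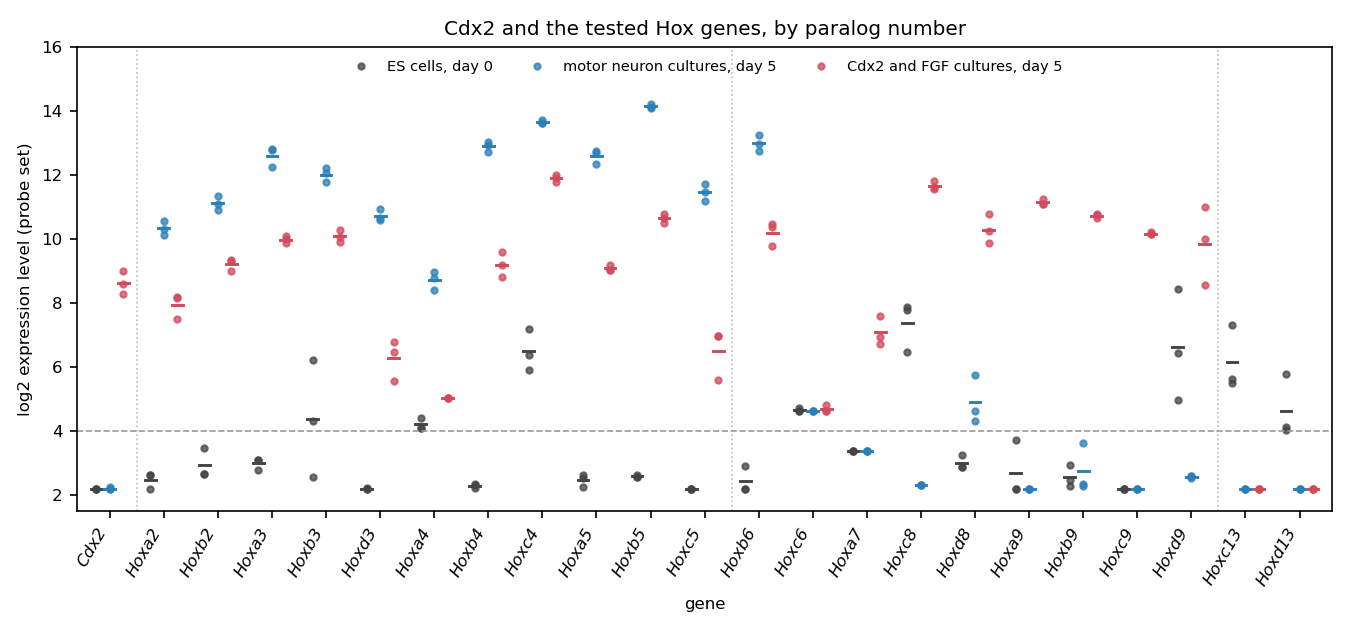
Log2 level (y axis) of Cdx2 and every tested Hox gene, in order of paralog number (x axis), in ES cells, motor neuron cultures and Cdx2 and FGF cultures; points are arrays, short bars the mean of 3, the dashed line marks 4 and dotted lines separate Cdx2 and paralogs 1 to 5, 6 to 9 and 10 to 13. In paralogs 1 to 5 the Cdx2 and FGF arrays sit between the other groups, near ES cells for Hoxa4, and Hoxa9, Hoxb9 and Hoxc9 are high there while both other groups lie under 4.

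Hox proteins bind DNA together with TALE-class homeodomain partners of the Meis, Pbx and Pknox families. Of 8 tested genes of this class, 5 were higher and 1 lower (median difference 2.84). Pknox2 had both probe sets higher, by 2.30 and 4.56, the first of which was 0.66 with low values raised. The brighter probe set of Meis1 went from 4.38, 4.38 and 4.24 to 10.31, 10.20 and 10.42 (difference 5.97, SE 0.18, adjusted p = 8.04e-09), 62.8-fold higher, while its second one differed by -0.99 and was not called. Meis2 had 3 of 4 probe sets higher, by up to 9.08, and the other differed by -1.42 without a call. Pbx3 fell by 2.69 in its brighter probe set (10.88, 10.59 and 10.65 against 7.74, 8.11 and 8.19) and differed by 0.06 in the other.

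Genes of the pluripotent state were lower almost throughout. Of 28 tested core and naive pluripotency genes, 26 were lower and none higher, median difference -7.82, and -6.55 on raised values. Of the 12 with several tested probe sets 9 had all of them lower and Sall4 was opposed, and 21 of the 28 lay under 4 in every induced culture. The factor genes Pou5f1, Nanog, Zfp42 and Esrrb read 2.17 in all induced cultures and had a single tested probe set each. The 2 members without a call were Lin28a (0.36, adjusted p = 0.0429) and Trim71 (-0.95, adjusted p = 0.0144), both regulators of developmental timing. These 2 and Sall4 were chosen for mention after their values were seen.

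Fgf4, the autocrine growth factor gene of ES cells, headed the ranking of concordant falls. Its brightest probe set read 14.05, 14.05 and 13.92 in ES cells and 2.17 in each induced culture, and its other tested probe sets read 12.83 to 13.21 in ES cells and 2.17 in the cultures. All 3 were lower, and the brightest was at least 1030-fold lower (difference -11.84, SE 0.20, adjusted p = 7.01e-10). Klf4, a zinc finger factor of naive cells, went from 10.57, 11.53 and 10.42 to 3.17, 2.89 and 3.17, at least 115-fold lower. The T-box gene Tbx3, the chromatin-bound Utf1 and the TGF-beta family ligand Gdf3 also had both probe sets lower, at least 170-fold, 86-fold and 166-fold in the brighter one. All of these were under 4 in both kinds of day 5 culture.

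Genes of the germ line and early embryo followed them. Of 20 tested, 19 were lower and none higher, median difference -7.26, and -5.65 on raised values. In every induced culture 16 of the 20 lay under 4, so a rise to a measured level could not be seen for these. Dppa2, a chromatin factor of the early embryo, fell from 14.03, 14.15 and 13.89 to 2.17 in every induced culture, at least 1040-fold, with both probe sets lower. Ooep, known from the oocyte, went from 13.85, 13.32 and 13.36 to 2.17 in every induced culture. Dppa5a kept a measurable signal, at 7.50, 6.54 and 6.23 against 14.88, 14.82 and 14.90, a 276-fold difference. Of 11 genes of the epiblast and primed state 6 were lower and 3 higher. The head-region factor gene Otx2 went from 11.16, 9.44 and 8.99 to 2.17, and Zic5 had both probe sets lower (10.85, 10.47 and 10.33 against 7.49, 7.83 and 7.27 in the brighter). Zic5 was at 2.63, 2.58 and 2.58 in motor neuron cultures, so it was 4.93 higher in induced cultures than there (adjusted p = 6.84e-07). Sox3, shared by primed cells and neural progenitors, rose by 5.23.

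Neural progenitor genes were higher. Of 22 tested, 15 were higher, 2 lower and 5 not called (median difference 1.92), and 7 of the 12 with several probe sets had all of them higher. Sox9, a factor of neural stem cells and of cartilage, went from 3.20, 3.38 and 2.17 to 10.31, 9.94 and 10.53, at least 76.6-fold higher (difference 7.35, SE 0.39, adjusted p = 2.26e-07). Hes5, a target of Notch, read 2.17, 2.17 and 2.57 in ES cells, 9.63, 9.40 and 9.87 in induced cultures and 11.61, 11.56 and 12.15 in motor neuron cultures. The intermediate filament gene Nes was spread over ES arrays at 4.73, 6.62 and 8.40 and read 10.28, 10.26 and 10.22 in the cultures, with 3 of 3 probe sets higher. Its difference of 3.67 was 2.74 without ES replicate 1 and 4.58 without ES replicate 3. Sox21 and the RNA-binding protein gene Msi1 also had all probe sets higher.

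Ventral progenitor and motor neuron genes were raised above ES cells. Of 18 tested, 15 were higher and 3 lower, median difference 3.63, and 2.79 on raised values. All ES arrays lay under 4 for 9 of the 18, so a fall from a measured level could not be seen for these. Nkx2-9, a hedgehog-dependent factor of the ventral cord, went from 2.24, 2.23 and 2.50 to 10.40, 10.81 and 10.67, at least 98.9-fold higher. The motor neuron factor gene Isl1 read 4.23, 4.84 and 5.38 in ES cells, 9.88, 9.55 and 9.88 in induced cultures and 12.77, 12.36 and 12.37 in motor neuron cultures. It was 31-fold above ES cells with both probe sets higher (difference 4.95, SE 0.29, adjusted p = 3.93e-07) and lower than motor neuron cultures (difference -2.73, adjusted p = 9.27e-05). Onecut1 and the GDNF co-receptor gene Gfra1 showed the same order, although the dimmer Gfra1 probe set differed from ES cells by 0.78 once low values were raised. Ret, the receptor that pairs with Gfra1, went from 5.07, 5.73 and 4.44 to 10.62, 10.39 and 10.74, 45.4-fold higher, and was above motor neuron cultures too (1.19, adjusted p = 0.0242).

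The label of the cultures names motor neurons, and their defining genes were not all measured. Mnx1 read 6.72, 6.19 and 6.70, Lhx3 5.21, 5.57 and 5.22, and Olig2 11.46, 11.38 and 11.41 in induced cultures, each called higher than in ES cells and lower than in motor neuron cultures except Olig2, whose difference of -0.89 there missed the size threshold. The acetylcholine transporter gene Slc18a3 read 4.12, 4.01 and 3.67 there and 2.17 on every ES array, while motor neuron cultures had 11.29, 11.37 and 10.65. Chat, which encodes the acetylcholine-making enzyme, was at 2.17 on all 9 arrays.

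Pan-neuronal genes went both ways. Of 36 tested, 19 were higher, 8 lower and 9 not called, median difference 1.25, and 0.95 on raised values, against 0.00 over all genes. Neurod4, a proneural factor of newborn neurons, went from 3.54, 3.72 and 3.54 to 11.91, 11.56 and 11.35, at least 195-fold higher with both probe sets (difference 8.00, SE 0.19, adjusted p = 2.32e-09). The RNA-binding protein gene Elavl4 had 3 of 3 probe sets higher, by 5.09 to 7.86, as did Ebf3 by 3.21 to 4.36 and the dendritic microtubule protein gene Map2 by 1.35 to 4.55. Stmn2, a regulator of growth cone microtubules, went the other way. It read 13.37, 13.09 and 12.75 in ES cells, 9.79, 9.81 and 9.70 in induced cultures and 14.07, 13.99 and 13.58 in motor neuron cultures, with both probe sets lower than in ES cells (difference -3.30, SE 0.17, adjusted p = 1.97e-07).

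The floor plate genes Foxa2 and Shh were measured in the cultures and not in ES cells. Foxa2, a forkhead factor of floor plate and endoderm, went from 2.21, 2.17 and 2.21 to 11.11, 11.30 and 11.49, at least 158-fold higher. The ligand gene Shh went from 2.37, 2.17 and 2.17 to 8.90, 9.22 and 10.23, at least 43.8-fold higher. Ntn1, an axon guidance factor, had both probe sets higher but was uneven over ES cells, at 2.75, 9.03 and 8.45 against 12.71, 12.90 and 13.14, and its difference of 6.18 was 4.18 without ES replicate 1. Of 6 tested genes of floor plate and interneurons 4 were higher and none lower.

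Several mesodermal transcription factor genes were measured in the induced cultures alone. Of 12 tested, out of 32 with a probe set, 8 were higher, 2 lower and 2 not called, median difference 3.89, and 2.75 on raised values. For 6 of the 12 all ES arrays lay under 4, so a fall from a measured level could not be seen. Meox1, a somite factor, went from 2.17 on every ES array to 10.74, 11.04 and 11.06, at least 123-fold higher (difference 8.78, SE 0.20, adjusted p = 2.32e-09), and stayed at 2.17 in motor neuron cultures. Foxc1, a forkhead factor of paraxial mesoderm, went from 2.29, 2.29 and 2.34 to 8.77, 9.05 and 9.35 and had both probe sets higher. Pax9, known from the sclerotome and pharynx, had 3 of 3 probe sets higher, by 5.39 to 6.87. Tbx1 went from 2.18 on every ES array to 8.39, 8.15 and 8.36. Against motor neuron cultures these genes differed by 8.78, 6.74, 5.53 and 6.12 in the same order. Of the defining markers, Tbx6 was at 2.17 on all 9 arrays and Twist1 fell by 1.07 (-0.65 without ES replicate 2, under the size threshold). Foxc2 was higher by 2.90, or 1.43 without ES replicate 1. Its arrays overlapped, at 2.90, 8.59 and 6.02 in ES cells against 8.45, 8.64 and 9.13 in induced cultures. The summed level of the mesoderm list (log2 of the sum of unlogged values) was 11.26 to 12.19 in ES cells and 12.58 to 12.76 in induced cultures. In motor neuron cultures it was 12.49 to 12.89, so the higher sum was not particular to the induced cultures.

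Of 14 tested genes of smooth muscle and contractile cells, 7 were higher, 1 lower and 6 not called (median difference 1.87). Of all genes tested 25.4% were higher and 27.2% lower. Actc1, the cardiac muscle actin gene, read 2.45, 2.45 and 2.77 in ES cells, 12.23, 12.13 and 12.09 in induced cultures and 2.58, 2.45 and 2.77 in motor neuron cultures. It was at least 284-fold above ES cells (difference 9.60, SE 0.22, adjusted p = 2.21e-09). Csrp1, a muscle LIM protein gene, had both probe sets higher, by 2.84 and 6.18, and Cnn1, which encodes calponin, rose from 2.51, 2.17 and 4.91 to 7.23, 7.51 and 6.93. The tropomyosin gene Tpm1 had 2 of 3 probe sets higher, and the remaining one differed by -0.34. The Actc1 promoter, chosen after the values were seen, is shown because this gene rose most in the list and its promoter holds the letters TTTATNG on its minus strand, read here as CTATAAA. These letters overlap a TATA box. It lies at chr2:114052826-114053125 on the minus strand of GRCm38.p6 (RefSeq start, same window), 5′ to 3′, with the match in capitals:
Actc1 promoter: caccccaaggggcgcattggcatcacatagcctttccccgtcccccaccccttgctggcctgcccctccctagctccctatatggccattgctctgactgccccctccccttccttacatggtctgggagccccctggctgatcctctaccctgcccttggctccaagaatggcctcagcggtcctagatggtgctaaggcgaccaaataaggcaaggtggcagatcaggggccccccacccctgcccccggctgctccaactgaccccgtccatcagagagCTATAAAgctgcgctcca

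**Figure D3:**
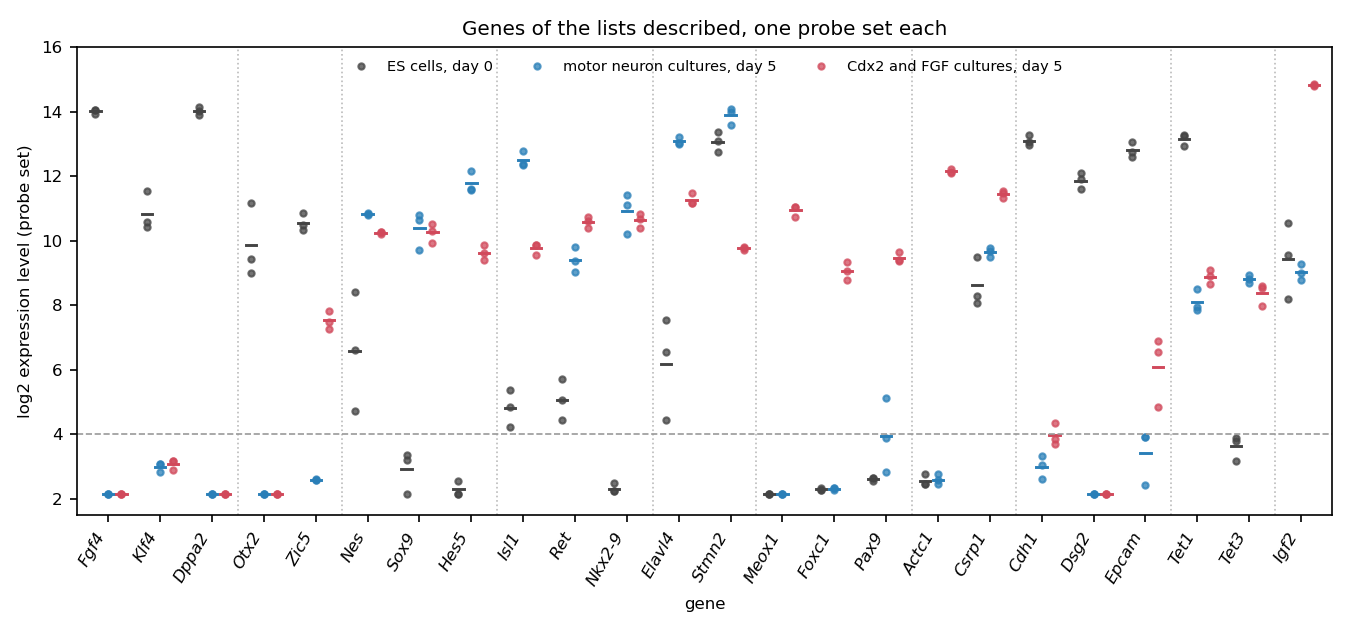
Log2 level (y axis) of genes from the lists described (x axis), in ES cells, motor neuron cultures and Cdx2 and FGF cultures; points are arrays, short bars the mean of 3, the dashed line marks 4, and dotted lines separate pluripotency, epiblast, neural progenitor, motor neuron, pan-neuronal, mesodermal, contractile, epithelial, Tet enzyme and imprinted genes. Fgf4, Klf4 and Dppa2 are under 4 in both day 5 groups, Isl1 lies between the other groups in the Cdx2 and FGF arrays, and Meox1, Foxc1 and Actc1 are measured only in the Cdx2 and FGF arrays.

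Epithelial junction genes, which ES cells share with epithelia, were mostly lower. Of 23 tested, 17 were lower, 1 higher and 5 not called, median difference -3.74, and -3.27 on raised values. Cdh1, the E-cadherin gene, fell from 13.05, 13.29 and 12.96 to 3.70, 3.86 and 4.36, at least 504-fold. The desmosomal cadherin gene Dsg2 had 4 of 4 probe sets lower and went from 11.90, 12.09 and 11.59 to 2.17. Epcam had both probe sets lower, at 13.05, 12.61 and 12.74 against 6.90, 6.54 and 4.85 in the brighter (difference -6.70, SE 0.57, adjusted p = 4.58e-06). Krt19, a simple-epithelium keratin, was the 1 member that rose. It read 8.29, 4.03 and 8.39 in ES cells and 12.26, 12.10 and 11.77 in induced cultures, against 3.93, 3.42 and 4.78 in motor neuron cultures, and its difference of 5.14 was 3.70 without ES replicate 2. Krt8 fell in 3 of 3 probe sets, the brightest with a difference of -4.23 that ran from -3.06 to -5.38 without 1 ES array.

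Markers of the other lineages that Cdx2 is known for were absent or mixed. Of 9 tested trophoblast genes, 4 were higher (Cdx2, Gata3, Krt19 and Igf2) and 3 lower (median difference -0.27). The defining trophoblast genes Eomes, Elf5 and Tpbpa were at 2.17 in every induced culture, while Gata3, shared with ventral interneurons, read 5.55, 6.04 and 6.17. The summed level of the trophoblast list was 13.72 to 14.65 in ES cells and 15.16 to 15.20 in induced cultures. Most of the sum in induced cultures came from Igf2, which also stands in the list of imprinted genes. Tfap2c, a factor of trophoblast and germ line that ES cells express, had 3 of 3 probe sets lower, with differences of -6.23 to -10.87. The intestinal genes Cdh17, Fabp2 and Muc2 were at 2.17 on every array of ES cells and induced cultures, and Vil1 read 2.24, 2.27 and 2.27. Of 17 intestinal genes with a probe set 3 were tested, and the list's summed level was 10.12 to 10.60 in ES cells and 7.22 to 7.65 in induced cultures. Gpa33 fell from 9.91, 10.47 and 10.22 to 2.17, Lgals4 fell by 2.88, and the iron transport gene Heph rose by 3.81.

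Of 8 tested endoderm genes 5 were higher and 2 lower. They included Foxa2, the chemokine receptor gene Cxcr4 (difference 2.78) and the endocytic adaptor gene Dab2, which had 4 of 4 probe sets higher. The endoderm markers Sox17 and Afp stayed under 3 on every array, and Ttr read 4.45, 5.74 and 3.74 in induced cultures, called at a difference of 2.38 that was 0.73, under the size threshold, with low values raised. The summed level of the endoderm list went from between 10.13 and 10.39 to between 12.81 and 13.04. Foxa2, Cxcr4 and Dab2 made up most of it in induced cultures. Motor neuron cultures had a higher sum, 13.77 to 13.93. Endothelial genes were lower in 4 of 6 cases and higher in none, with a summed level of 10.15 to 10.46 against 6.68 to 6.90. Tek, an angiopoietin receptor gene, fell from 9.41, 9.52 and 9.22 to 2.17, and Kdr and Cdh5 were near the lowest value in both groups. In the neural crest list 1 of 5 tested genes was higher and 2 lower, the lower ones being Mitf and Erbb3. The defining crest gene Sox10 stayed under 4 and Foxd3 and Tfap2a were at 2.17 in the cultures, where the list's summed level was 10.31 to 10.42 against 11.75 to 12.28 in ES cells. What part cells of these types have in the other results was not tested.

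Fibroblast genes went both ways. Of 13 tested, 2 were higher, 3 lower and 8 not called (median difference -0.13), a smaller called share than the 52.6% of all genes. Their summed level spanned 13.95 to 15.25 in ES cells, 14.32 to 14.49 in induced cultures and 12.09 to 12.76 in motor neuron cultures. Col1a1, a fibrillar collagen gene, was lower with both probe sets (10.15, 10.45 and 12.68 against 7.11, 7.11 and 7.09), and the PDGF receptor gene Pdgfrb was higher with both (4.33, 5.63 and 3.85 against 7.57, 7.24 and 7.85). Both were above motor neuron cultures, by 4.94 and 3.63. Thy1, a defining surface marker, fell from 5.96, 6.92 and 8.16 to 2.17 in every induced culture. The defining collagen genes Col1a2 (difference -0.86, adjusted p = 0.598) and Col3a1 (1.84, adjusted p = 0.21) were not called. Both were uneven over ES cells, at 3.81, 9.80 and 10.17 for Col1a2 and 2.46, 8.47 and 7.41 for Col3a1. Of 12 annexin and S100 genes, calcium-dependent membrane binders, 7 were lower and 2 higher; Anxa6 and Anxa7 had both probe sets lower.

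**Figure D4:**
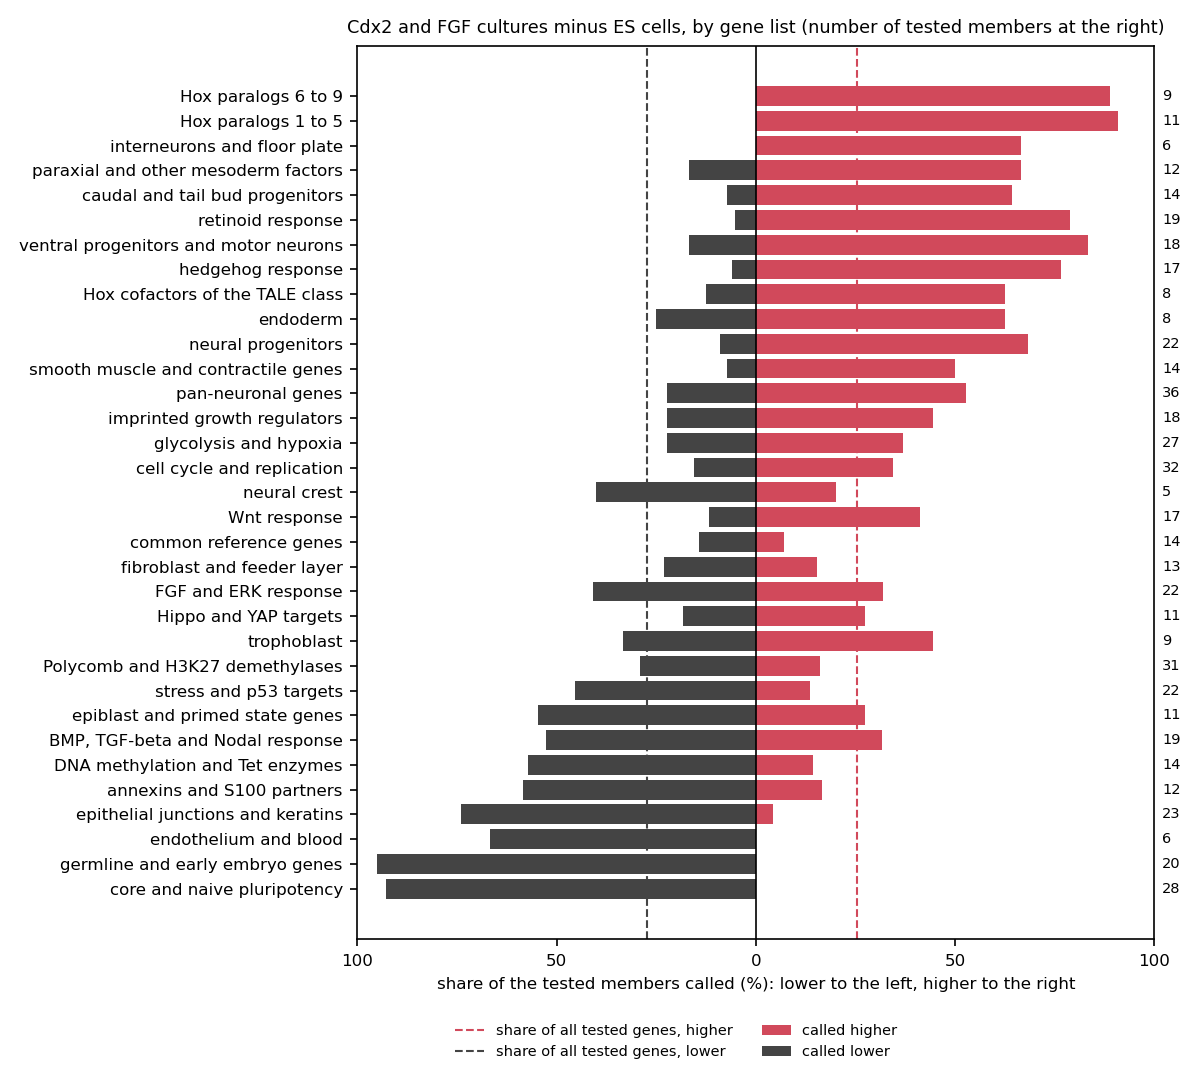
Share (percent, x axis) of the tested members of each gene list with at least 5 of them that were called higher (right) or lower (left) in Cdx2 and FGF cultures against ES cells, ordered by median difference; dashed lines give 25.4% and 27.2%, the shares of all tested genes, and the number of tested members stands at the right. Both Hox lists have no member called lower, and the pluripotency and germ line lists have none called higher.

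Retinoid genes were higher. Of 19 tested, which include Meis1, Meis2 and Cyp26a1, 15 were higher and 1 lower (median difference 3.65). Nr2f1, an orphan nuclear receptor gene induced by retinoic acid, read 3.05, 2.85 and 3.02 against 12.74, 12.66 and 12.79, at least 425-fold higher (difference 9.76, SE 0.14, adjusted p = 3.52e-10). Nr2f2 had 4 of 4 probe sets higher, but its brightest one read 2.64, 9.17 and 8.72 in ES cells, so that its difference of 5.05 was 2.95 without ES replicate 1. Of 17 hedgehog genes, which include Foxa2, Shh, Olig2 and Nkx2-9 from above, 13 were higher and 1 lower (median difference 3.03). Smo, which relays the signal, read 2.42, 2.42 and 5.09 against 11.89, 11.99 and 11.91. The co-receptor genes Gas1 (3 of 3 probe sets) and Cdon (2 of 2) and the inhibitor gene Sufu (2 of 2) rose by 2.56, 2.21 and 2.11 in the brighter probe set.

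FGF and ERK response genes went both ways. Of 22 tested, 7 were higher, 9 lower and 6 not called (median difference -0.19), where 25.4% of all genes were higher and 27.2% lower. The receptor gene Fgfr3 read 5.55, 4.78 and 4.99 against 10.43, 9.96 and 10.56, with both probe sets higher (difference 5.21, SE 0.26, adjusted p = 1.33e-07). The feedback inhibitor gene Il17rd had both probe sets higher, by 2.00 and 5.74. Spry4, another feedback inhibitor, had both lower, at 9.88, 10.75 and 10.07 against 8.15, 7.45 and 6.83 in the brighter. It was at 2.17, 2.26 and 2.17 in motor neuron cultures, and thus 5.28 higher in induced cultures than there (adjusted p = 5.55e-06). The immediate early gene Fos fell by 6.28, from 11.39, 12.86 and 7.70 in ES cells.

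In the Wnt list 7 of 17 tested genes were higher and 2 lower (median difference 0.15). Frizzled receptor genes led it. Fzd3 had 6 of 6 probe sets higher, and its brightest one read 6.96, 7.85 and 7.84 against 12.03 in every induced culture (difference 4.48, SE 0.23, adjusted p = 1.47e-07). Fzd2 had 3 of 3 higher, by 1.81 to 8.32. In the BMP, TGF-beta and Nodal list 6 of 19 were higher and 10 lower (median difference -1.30). The ligand gene Nodal went from 10.33, 9.65 and 9.94 to 2.44 in every induced culture and the inhibitor gene Smad7 from 11.02, 11.18 and 11.10 to 8.75, 8.75 and 8.81, each with both probe sets lower. Tgfb2 had 4 of 4 probe sets higher, at 7.80, 6.18 and 8.98 against 11.29, 11.25 and 10.99, and was 6.36 above motor neuron cultures. Hippo pathway genes gave 3 higher and 2 lower of 11, among them Amotl1 with 3 of 3 and Lats2 with 4 of 4 probe sets higher. Beside these lists, 25.4% of all genes tested were higher and 27.2% lower.

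Chromatin regulators changed member by member. Of 31 tested Polycomb and H3K27 demethylase genes, 5 were higher, 9 lower and 17 not called (median difference -0.55). That called share was under the 52.6% of all genes tested. Suz12, a core subunit of the complex that methylates H3K27, had 5 of 5 probe sets lower, with differences of -1.37 to -2.36. Its brightest probe set read 13.82, 13.78 and 13.71 against 11.79, 11.67 and 11.54, 4.28-fold lower. Jarid2, a cofactor of that complex, had 3 of 3 lower (13.35, 13.85 and 13.52 against 10.13, 9.83 and 10.23 in the brightest), and Kdm2b, which brings a Polycomb complex to CpG islands, had 2 of 2 lower. Phc2 and Bmi1, subunits of the complex that ubiquitinates histone H2A, went the other way with both probe sets. Phc2 read 7.70, 8.32 and 8.39 against 12.55, 12.72 and 12.87, 23.9-fold higher, and Bmi1 rose by 1.55.

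Of 14 tested genes of DNA methylation and its removal, 8 were lower and 2 higher (median difference -1.33). The Tet enzymes, which oxidise methylated cytosine, split. Tet1 had 4 of 4 probe sets lower (13.23, 13.28 and 12.93 against 9.08, 8.64 and 8.90 in the brightest; log2 difference -4.27, SE 0.21, adjusted p = 1.26e-07) and Tet2 had 2 of 2 lower. Tet3, with 1 tested probe set, rose from 3.88, 3.81 and 3.18 to 7.99, 8.53 and 8.58, at least 20.6-fold. The methyltransferase gene Dnmt3b had both probe sets lower, and its cofactor gene Dnmt3l went from 12.56, 11.97 and 12.11 to 2.17 in every induced culture.

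Of 32 tested cell cycle genes, 11 were higher, 5 lower and 16 not called (median difference 0.25). The called share was close to the 52.6% of all genes tested. The D-type cyclin gene Ccnd2 was the member read by most probe sets, with 7 of 7 higher by 4.29 or more. Its brightest probe set read 7.42, 10.25 and 10.32 against 13.63, 13.63 and 13.60. Its partner kinase gene Cdk6 had 3 of 3 higher. Cdkn1c, an imprinted cell cycle inhibitor gene, read 6.12, 4.32 and 8.95 in ES cells and 13.53, 13.58 and 13.39 in the cultures, a difference of 7.04 that ranged from 5.96 to 8.28 without 1 ES array.

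Of 18 imprinted growth genes 8 were higher and 4 lower (median difference 0.55), where 25.4% and 27.2% of all genes were. Igf2, the fetal growth factor gene, was high in induced cultures on both probe sets. One read 2.51, 2.24 and 3.25 in ES cells and 14.78, 14.77 and 14.79 in the cultures (difference 12.11). The other read 10.55, 8.19 and 9.56 against 14.83, 14.78 and 14.86 (difference 5.39, SE 0.47, adjusted p = 5.7e-06). Igf2 was also 5.80 above motor neuron cultures in that probe set (adjusted p = 1.65e-05). Ndn had 5 of 5 and Peg3 3 of 3 probe sets higher, while the amino acid transporter gene Slc38a4 had both lower.

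Glycolysis and stress genes completed the lists. Of 27 tested glycolysis and hypoxia genes 10 were higher and 6 lower (median difference 0.43), where 25.4% and 27.2% of all genes were. Tpi1 (3 of 3 probe sets) and Pfkl (2 of 2) were higher, and Ldhb had 4 of 4 lower, at 13.94, 14.28 and 14.30 against 11.29, 10.71 and 10.62 in the brightest. Of 22 stress and p53 target genes 3 were higher and 10 lower (median difference -0.93). The small heat shock protein gene Hspb1 had both probe sets lower and went from 12.54, 12.07 and 13.22 to 2.61, 3.11 and 2.33, at least 391-fold. Of 14 common reference genes, Hprt and Tfrc were lower, 1 was higher and 11 were not called (median difference -0.08). The Tfrc call rests on its brightest probe set (difference -2.12) and reversed with the mean of all its probe sets. Its 5′ control went the other way, from 4.2, 2.6 and 4.1 in ES cells to 11.5, 10.7 and 10.9 in induced cultures.

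Replication-dependent histone genes, whose mRNAs have no poly(A) tail, were measured for 4 members. Of these 2 were higher, 1 lower and 1 not called. H1f4, a linker histone gene, read 5.47, 2.93 and 3.02 in ES cells and 14.50, 14.49 and 14.36 in the cultures. The probe sets of H1f2, another linker histone gene, differed by -1.74, 0.95 and 7.10. The median level of the 4 genes was 8.30, 6.57 and 6.05 in ES cells and 8.25, 8.00 and 8.92 in induced cultures, an overlap (exact two-sided permutation p = 0.3). The 18S controls, also RNA without a poly(A) tail, differed in the same direction as H1f4, and the part of RNA priming in these values was not tested.

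The largest concordant rises were ranked by the smallest difference among a gene's probe sets after values under 4 had been raised to 4; the differences given here are without raising. Igfbp5, which encodes a binding protein of IGF1 and IGF2, came first, with differences of 9.74 and 11.08 in its probe sets. The brighter one read 3.08, 3.16 and 6.21 in ES cells, 13.81, 13.85 and 14.01 in induced cultures and 10.13, 10.59 and 8.56 in motor neuron cultures. Kbtbd11 (10.07 and 10.62) and the zinc finger gene Zfp503 (7.44 and 9.28) came next. Ednrb, the endothelin receptor gene of crest and glial precursors, had 3 of 3 probe sets higher by 8.09 to 9.53 and read 12.13, 12.16 and 12.54. Hoxa9, Neurod4, Fndc5, Ntn1, Srgap3, Ret, the fibrillin gene Fbn2 and Igf2 completed the 12. Of these, Igfbp5, Hoxa9, Fbn2 and Igf2 were over 3 log2 units above motor neuron cultures as well (4.13, 8.99, 3.95 and 5.80), whereas Kbtbd11, Zfp503, Ednrb, Fndc5, Ntn1 and Srgap3 had no call against them.

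The largest concordant falls began with Fgf4. Pla2g1b, a secreted phospholipase gene, went from 12.92, 12.26 and 13.09 to 2.17 in every induced culture, at least 432-fold lower. Tbx3, Hspb1, Zfp982, Klf4, Dppa2, Utf1, Nupr1 and Niban1 followed, and ranks 2 and 11 of the 12 are clone names that are not given. Zfp982 was over 4 on 1 induced array (3.84, 4.69 and 3.88), and Nupr1, a stress-induced nuclear protein gene, on all 3 (4.32, 5.77 and 4.32). Both probe sets of each of these genes were called lower, as were 3 of 3 for Fgf4.

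The 6 most opposed genes had probe sets that moved apart by large amounts. In Pdxdc1, 1 probe set read 10.63, 10.34 and 10.89 in ES cells and 2.17 in every induced culture, a difference of -8.46. Its other 3 probe sets were higher by 3.23 to 4.81. In Kdm5c, a histone demethylase gene, differences over 6 probe sets ran from -2.32 to 8.13, with 2 called higher and 1 lower. The receptor phosphatase gene Ptprk had 3 probe sets lower and 1 higher by 5.73. The differences of Efcab14 ran from -3.74 to 7.35, those of Tnks2 from -2.44 to 7.80 and those of Cdk12 from -6.46 to 4.77. In motor neuron cultures the Pdxdc1 probe set that fell was also at 2.17.

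**Figure D5:**
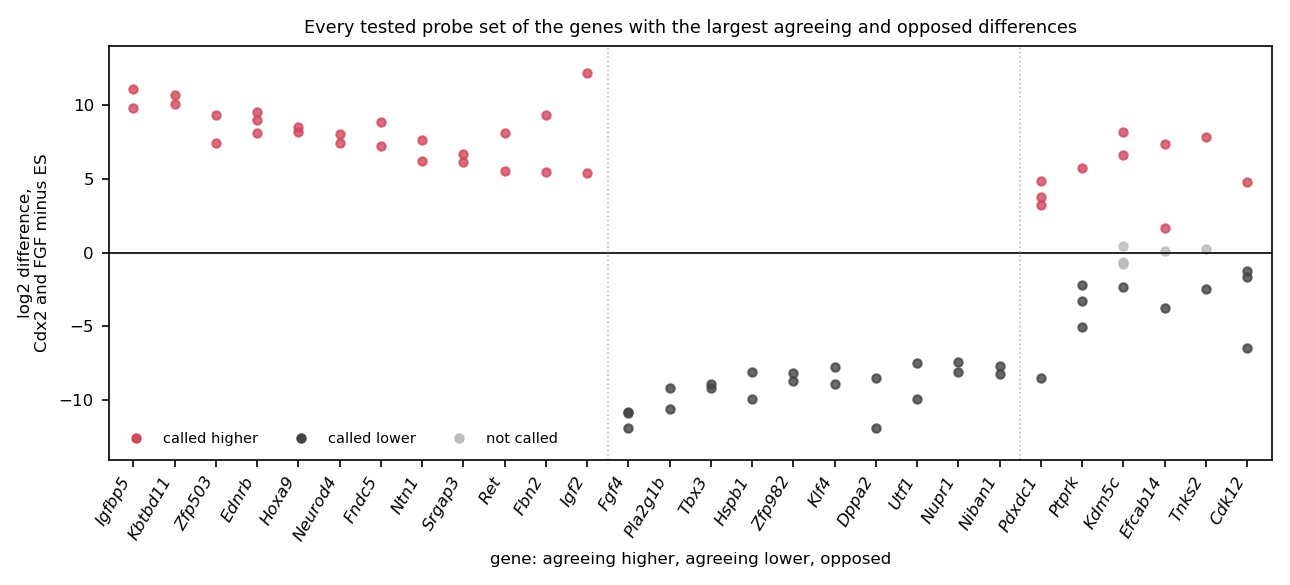
Log2 difference, Cdx2 and FGF cultures minus ES cells (y axis), of every tested probe set of the 12 genes with the largest concordant rise, the 10 named genes with the largest concordant fall and the 6 most opposed genes (x axis); each point is 1 probe set, coloured by its call. The concordant genes lie on one side of 0 with all points past 5, and the opposed genes have called points on both sides.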

How the data were processed

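Gene expression was measured on 9 Affymetrix arrays (3 per group) from RNA prepared with a NuGEN Ovation amplification kit, per the labels' protocols. The deposited values are log2 expression levels per probe set that the authors made with GCRMA and limma, per the submitters' processing notes, which give no versions; that the scale is log2 was judged from their range. Of 45101 probe sets, 34958 had 1 gene symbol, 932 several and 9211 none in the platform annotation, and 34754 matched RefSeq (GRCm38.p6) by Entrez number. Arrays had no counts, so their number limits the precision.

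A gene or probe set was tested if it was over 4 on at least 3 of 9 arrays. The fit (lmFit and eBayes with trend, limma 3.58.1 in R 4.3.3) used all 9 arrays in 3 groups with 6 residual degrees of freedom, adjusting over all genes or all probe sets. Summaries and figures used Python 3.11.15, pandas 2.3.3 and scipy 1.17.1. The fit was run on simulated data with no floor, equal spread in all groups and few changed genes. That run cannot speak for values at the floor or for unequal spread.

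Named were Cdx2, every Hox gene, the 12 largest concordant rises and falls, up to 5 members of each gene list by the same rank, defining cell type markers and the 6 most opposed genes. The members and lists were chosen with earlier results of these data known. Alternatives covered the filter, low values, threshold, scaling, choice of probe set, replicate block and leaving out arrays.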

Additional observations from a re-analysis of the deposited data

Results flagged for a closer look

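The 3′ control probe set for 18S ribosomal RNA, which no gene comparison used, had a mean of 15.38 on the log2 scale over the 3 induced cultures, with single arrays at 15.42, 15.40 and 15.33. Over the 3 ES arrays its mean was 6.35, so it carried a signal far above that of the control group. The motor neuron arrays read 15.49, 15.51 and 15.45. The 5′ and middle 18S probe sets differed between induced cultures and ES cells by 10.84 and 4.09.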

How the results depend on the processing

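Of 3666 values of named genes under the alternatives, 3591 kept direction and call, 65 lost the call, 6 gained a call and 4 reversed. Of 179 called named genes, 154 kept their call in every alternative run. Many of them were named for large differences in the same data, so this share does not describe calls in general. A threshold of 2 on the log2 difference left 1485 higher and 1610 lower genes, of which 336 and 200 had concordant probe sets. Taking each probe set by itself gave 6289 higher and 4678 lower. With no filter on low values 440 and 261 genes were concordant, and 61.2% and 59.4% of the concordant higher and lower genes were kept. Requiring 1 sign with at least 1 called probe set gave 1478 and 802. Leaving out 1 array gave 2629 to 2806 higher and 2850 to 3011 lower genes, and 647 to 720 and 375 to 413 concordant ones. Median centring gave 3725 higher and 2215 lower genes, and 1044 and 279 concordant ones, all 698 higher and 279 of the 397 lower genes being kept. The mean of all probe sets gave 2.1 for H1f2, 1.27 for Kdm5c and 1.70 for Tfrc, and leaving out x_at and s_at probe sets gave 0.06 for Pbx3, reversing these 4; their probe sets were opposed or unlike. Equal replicate numbers did not pair the arrays (correlations of deviations -0.03 to 0.106); with the number as a replicate block, 2784 genes were higher and 2973 lower, and 698 and 396 concordant. The cause of the changes was otherwise not tested. Values under 4 set no order among dim genes.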
